A study of Mus musculus with 4 samples.

Results

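A set of 10 genes of fibroblast growth factor (FGF) signalling was read in newborn mouse epidermis, among 24453 gene symbols counted in each of 4 libraries. The 10 genes were chosen by name: the receptors Fgfr1, Fgfr2, Fgfr3 and Fgfr4, the ligands Fgf1 and Fgf2, and the feedback inhibitors Spry1, Spry2, Spry4 and Dusp6. All 10 were present in the files, and 9 had enough reads to be tested. Fgf2 did not. RNA came from back skin cells at postnatal day 0, sorted as positive for EpCAM and Sca1 with high α6-integrin, which enriches progenitors of the epidermis between hair follicles. The 2 mutant libraries carried the genotype Ring1a-/- Ring1b-/I53A, which combines loss of Ring1a with a null and an I53A allele of Ring1b, the catalytically inactive form. The 2 other libraries are labelled as control, and no allele is named for them. All 4 share age, tissue, dissociation and sort. No Cre line or promoter is named in the labels, and the mutant genotype does not separate the I53A allele from the loss of Ring1a or from the null allele.

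FGFs are secreted proteins that bind tyrosine kinase receptors together with heparan sulfate chains. The receptors signal through the adaptor Frs2 to RAS and the kinase ERK, and ERK signalling switches on its own inhibitors: Sprouty and Spred proteins act between receptor and RAF, and Dusp6 removes phosphate from ERK in the cytoplasm. In skin, keratinocytes are known for the IIIb splice form of Fgfr2, which binds Fgf7 and Fgf10 made by the dermis, while Fgfr1 is known as the main FGF receptor of fibroblasts. Ring1a and Ring1b are the ubiquitin ligases of Polycomb repressive complex 1 (PRC1), and the comparison asks what their catalytic activity does in epidermis.

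The libraries held 15505018 to 21543385 counts. Ring1, the gene of Ring1a, stood at 24.2 and 33.3 CPM (reads relative to the TMM-scaled library size) in the controls and at 2.54 and 2.91 CPM in the mutants, or 9.50% of the control mean. Rnf2, the gene of Ring1b, stood at 58.5 and 45.8 CPM in the controls and at 58.9 and 59.1 CPM in the mutants. The null allele of Ring1b was thus not seen as a lower level. Gene-level counts cannot show the I53A base change. Nothing in the labels says whether replicates came from separate animals, so that p-values measure the spread between these libraries only. Basal keratinocyte markers (Krt5, Krt14 and 7 others) were high in every library in sum. The summed level was 30404 and 33961 CPM in the controls and a lower one of 23856 and 21094 CPM in the mutants. Krt5 made up most of each sum. Fibroblast markers were present too, at 2887 to 3595 CPM in sum. Of the 4 libraries, I53A replicate 1 was the one with reads of the Y-linked gene Ddx3y (119 CPM, and at most 0.119 CPM elsewhere).

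Fgfr1 was the only one of the 10 genes that changed between the groups by the test over all genes (quasi-likelihood test of edgeR, with p-values adjusted by Benjamini and Hochberg's method and called under 0.05). It rose 1.84-fold in I53A epidermis. Fgfr2, the receptor with most reads, and the feedback genes Spry1, Spry2 and Dusp6 did not pass the test. Neither did Fgfr3 and Fgfr4, which had lower values in the mutants, nor Fgf1 and Spry4, which had higher ones. Over all 14550 genes tested 6.71% were called, 5.68% as higher and 1.04% as lower in I53A, so that 1 of 9 is near the background and is not a result about the 10 genes as a group. Their median log2 fold change was 0.26, against -0.01 over all tested genes. In 8 of the 9 tested genes the libraries of the groups did not overlap, with 5 higher and 3 lower in I53A, where 47.9% of all tested genes did not overlap (24.5% higher and 23.5% lower). An unadjusted p under 0.05 was reached by 3 of the 9 (Fgfr1, Fgfr3 and Spry4), and by 18.7% of all tested genes.

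**Figure D1:**
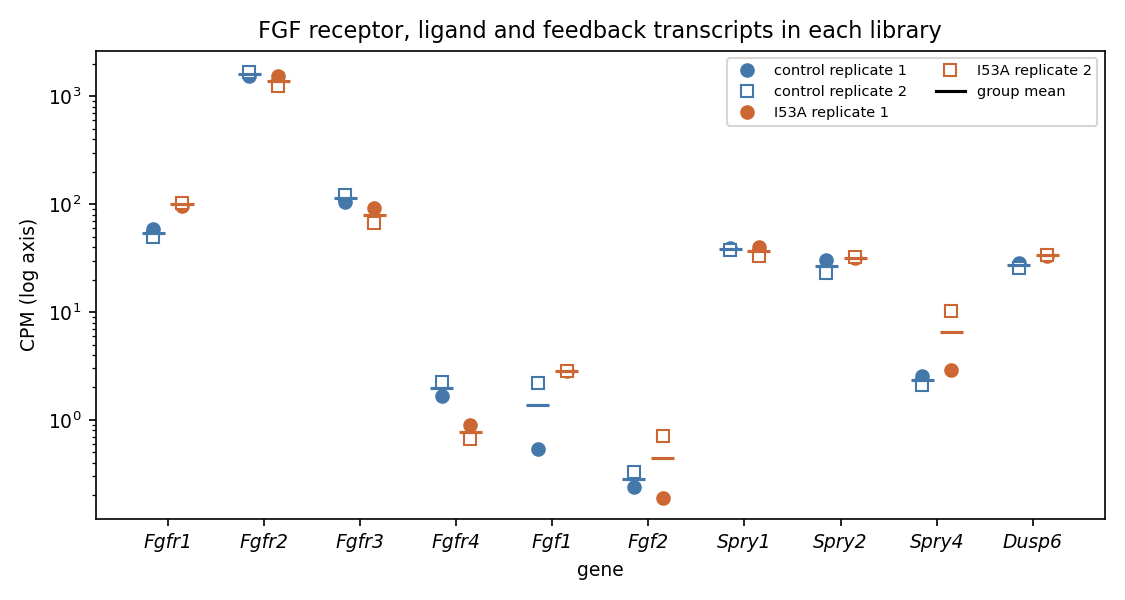
CPM (log axis) of each of the 10 genes in control (blue) and I53A (orange) libraries, with filled circles for replicate 1, open squares for replicate 2 and a line at the group mean. Fgfr2 stands above 1250 CPM in every library, Fgfr1 is higher in both I53A libraries, and Spry4 is high in I53A replicate 2 alone.

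Among the receptors, Fgfr1 lies on chromosome 8 from 25518759 to 25575718 on the plus strand (RefSeq, GRCm38.p6, the assembly also called mm10, as for all positions here). Its level was 58.3 and 49.8 CPM in control replicates 1 and 2, from 980 and 752 reads. In I53A replicates 1 and 2 it was 96.5 and 103 CPM, from 1516 and 2329 reads. Both mutant libraries stood above both controls, and the replicates of each group lay close together. The means were 54.1 ± 6.01 and 99.5 ± 4.38 CPM (SD, n = 2 each), which gave a log2 fold change of 0.88 ± 0.16 (SE) with a 95% interval from 0.53 to 1.23 (adjusted p = 0.00744, edgeR quasi-likelihood test). In fits with 1 library in a group, the call was kept without either mutant and lost without either control. Fewer genes were called in all without a control. The estimate was 0.99 and 0.77 without control replicates 1 and 2, and 0.93 and 0.83 without I53A replicates 1 and 2. When offsets corrected GC content and exon length it was 0.50 (adjusted p = 0.0731, edgeR), a setting that moved the median of all genes by -0.12. Gm16159 overlaps Fgfr1 exons on the opposite strand, with 13 and 12 reads in control replicates 1 and 2 and 50 and 20 in I53A replicates 1 and 2. The strand setting of the counting was not given in the sources used here.

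Some fibroblast markers were higher in the libraries where Fgfr1 was. Of 13 listed markers, all tested, 3 rose (Dcn, Fbn1 and Thy1), none fell, and 10 did not pass the test. These are 23.1% called, against 6.71% over all genes (5.68% higher). In 10 of the 13 both mutants stood above both controls, as in 24.5% of all tested genes. The matrix genes Postn and Col6a3 overlapped between the groups, with log2 fold changes of -0.19 and 0.05, and so did Lum. The summed level of the 13 was 2887 and 3080 CPM in the controls and 3387 and 3595 CPM in the mutants, 1.17-fold higher by the means. Postn alone gave 1371 and 1483 CPM of the control sums and 1036 and 1461 CPM of the mutant sums. Postn thus weighed heavily in both sums, and its own mean was lower in the mutants (1248 against 1427 CPM). It lowered the ratio of the sums, and a ratio without Postn was not computed. None of the 13 was at 0 in any library. The fibroblast receptor gene Pdgfra stood at 6.79 and 5.70 CPM in the controls and at 14.8 and 8.15 CPM in the mutants, without passing the test (adjusted p = 0.246, edgeR). Hair follicle markers also had a higher sum in the mutants, 789 and 900 CPM against 506 and 499 CPM, and 2 of 8 rose (Lhx2 and Krt79), 25% against the 6.71% called over all genes. Of the other 6, which did not pass, the receptor gene Edar was lower in both mutants (log2 fold change -0.18). Of 9 basal keratinocyte markers, 1 fell (Krt15) and none rose, 11.1% called against 6.71% over all genes. Both mutants stood lower in 4 of the 9, and higher in 1, Epcam, the gene of a sort marker. Over all tested genes 23.5% stood lower in both mutants and 24.5% higher. The summed level of these 9 markers in the mutants was 0.698 of the control mean. Krt5 alone gave 17517 and 21216 CPM of the control sums and 14040 and 11505 CPM of the mutant sums. It did not pass the test (adjusted p = 0.138, edgeR). Itga6, Itgb4, Ly6a and Trp63 overlapped between the groups. The part of these cell types in the Fgfr1 result, or in the lower values of Fgfr2 and Fgfr3 given next, was not tested. In sorted bulk cells, fewer cells of a type and less RNA per cell cannot be told apart.

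Fgfr2 spans 130162451 to 130266808 of chromosome 7, minus strand. It was read at 1544 and 1677 CPM in control replicates 1 and 2, and at 1532 and 1250 CPM in I53A replicates 1 and 2. The groups did not overlap, although I53A replicate 1 lay next to control replicate 1. The log2 fold change was -0.21 ± 0.15 (SE, 95% interval -0.56 to 0.13, adjusted p = 0.552, edgeR). The interval leaves room for a decrease to about the size that Fgfr3 showed, and for a small increase. Ctbp2 overlaps Fgfr2 exons on the same strand, with 439 and 457 reads in control replicates 1 and 2 and 649 and 1078 in I53A replicates 1 and 2. Gene-level counts do not separate the IIIb splice form of epithelium from the IIIc form of mesenchyme, for Fgfr2 or for Fgfr1 and Fgfr3.

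Fgfr3, a receptor known for restraining bone growth and for its mutations in seborrheic keratoses of skin, lies on chromosome 5 from 33721724 to 33737068 on the plus strand. Control replicates 1 and 2 read 105 and 122 CPM, and I53A replicates 1 and 2 read 92.9 and 66.5 CPM. Both mutants were below both controls, with the lower value in I53A replicate 2. The log2 fold change was -0.51 ± 0.18 (SE, 95% interval -0.92 to -0.10), which missed the threshold after adjustment over all genes (adjusted p = 0.154, edgeR). Without I53A replicate 1 it was -0.77 and passed (adjusted p = 0.00533, edgeR), and without I53A replicate 2 it was -0.29 (adjusted p = 0.297, edgeR). With the GC content and length offsets it was -0.84 (adjusted p = 0.0176, edgeR), again beside a median of all genes moved by -0.12.

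Fgfr4, a receptor best known from liver, was scarcely read. On chromosome 13 from 55152818 to 55168759 (plus strand) it collected 28 and 34 reads in control replicates 1 and 2 and 14 and 15 in I53A replicates 1 and 2. These are 1.67 and 2.25 CPM against 0.891 and 0.661 CPM. The mutant libraries were both lower, but with so few reads the log2 fold change of -1.35 had a 95% interval from -2.73 to 0.02 (adjusted p = 0.277, edgeR).

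**Figure D2:**
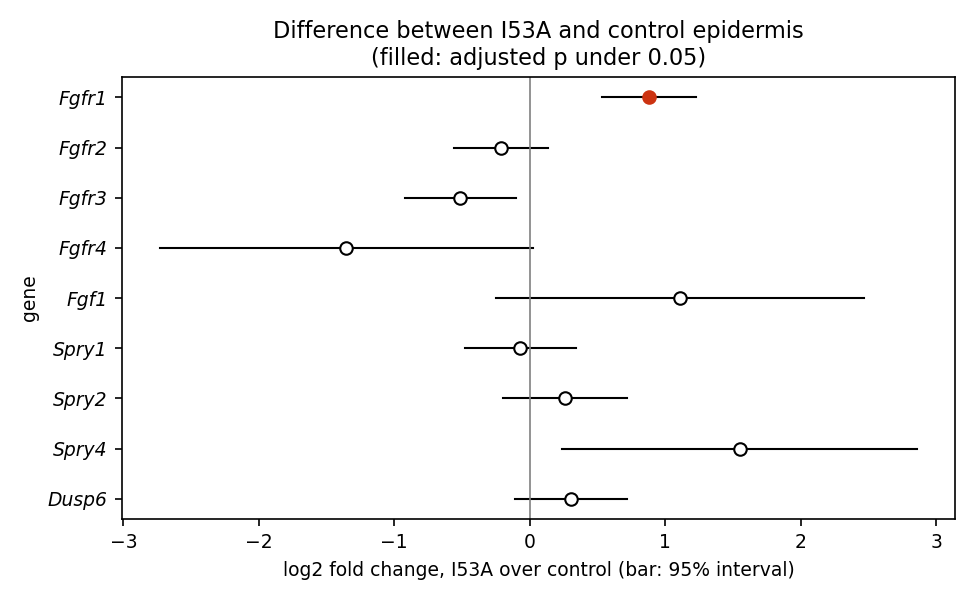
Log2 fold change of I53A over control for the 9 tested genes, with 95% intervals that are not adjusted for the number of genes. The filled point, Fgfr1 at 0.88, is the one gene past the adjusted threshold, and the widest intervals belong to the low genes Fgfr4, Fgf1 and Spry4.

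Compared per kilobase of exon, Fgfr2 made up most of the receptor transcripts in each library. Its share of the 4 receptor genes was 87.7% in both controls, and 86.6% and 85.9% in I53A replicates 1 and 2. The share of Fgfr1 was 3.46% and 2.73% in the controls and 5.70% and 7.37% in the mutants. Fgfr3 went the other way, with 8.57% and 9.23% in the controls and 7.57% and 6.60% in the mutants. In both controls Fgfr3 was the second receptor, while in I53A replicate 2 Fgfr1 stood above Fgfr3. Fgfr4 stayed at or below 0.344% in every library. Shares of a whole depend on each other, and no test was made on them. Exon lengths were the union over all annotated transcripts. With undivided reads the share of Fgfr2 was 1.98 percentage points lower in the mutants, against 1.46 points lower per kilobase.

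**Figure D3:**
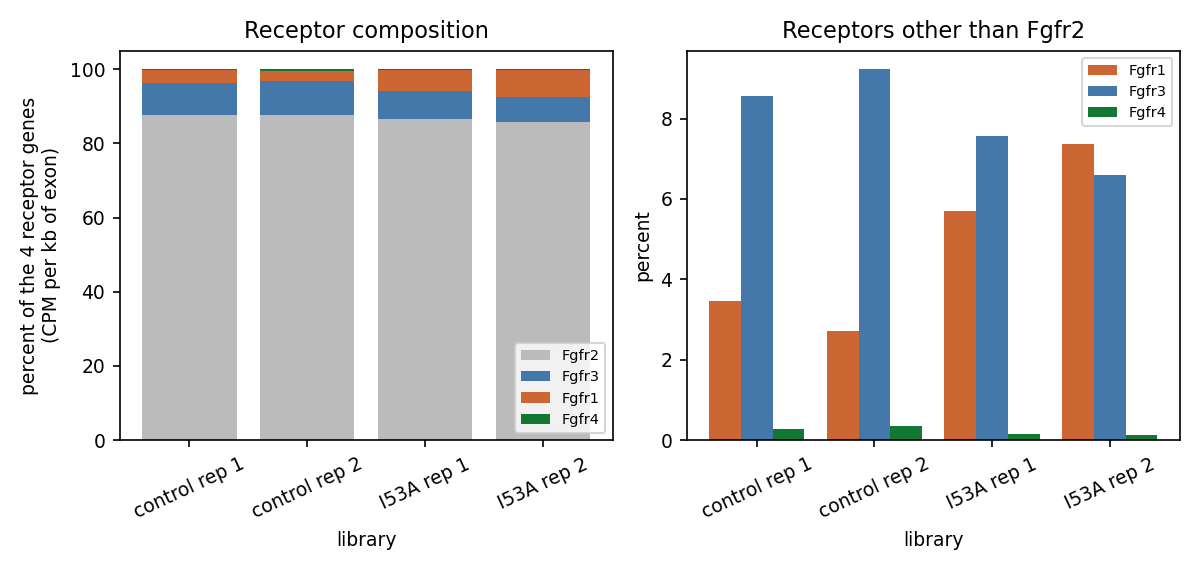
Left, the share of each receptor gene in the summed CPM per kilobase of exon of all 4 receptor genes, by library. Right, the same shares for Fgfr1, Fgfr3 and Fgfr4 alone, where Fgfr1 is at 2.73% to 3.46% in controls and 5.70% to 7.37% in I53A libraries.

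The ligand genes were near the limit of reading. Fgf1, which binds every FGF receptor and is exported without a signal peptide, is at chromosome 18, 38838672 to 38929470, minus strand. Fgf1 had 9 and 33 reads in control replicates 1 and 2 and 45 and 65 in I53A replicates 1 and 2, or 0.536, 2.19, 2.86 and 2.86 CPM. The mutant libraries had the same level, while the controls differed widely. The log2 fold change of 1.11 (95% interval -0.25 to 2.47) did not pass the test (adjusted p = 0.389, edgeR), and its size rested on control replicate 1: without it the value was 0.38. Fgf2, a ligand stored in matrix and likewise exported without a signal peptide, lies on chromosome 3 from 37348477 to 37410106 on the plus strand. It had 4 and 5 reads in the controls and 3 and 16 in the mutants, and was left out by the low-count filter. The groups overlapped. Nudt6, a gene on the opposite strand that shares exon sequence with Fgf2, had 98, 68, 47 and 93 reads, and the Fgf2 value is uncertain, since the strand setting of the counting was not given in the sources used here.

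Of the feedback inhibitors, Spry1 and Spry2 did not pass the test. Spry1 (chromosome 3 from 37639947 to 37644599, plus strand) was read at 39.0 and 37.2 CPM in control replicates 1 and 2 and at 40.1 and 32.8 CPM in I53A replicates 1 and 2. The mutants stood on either side of the controls (log2 fold change -0.07, 95% interval -0.48 to 0.34, adjusted p = 0.904, edgeR). Spry2 (chromosome 14 from 105891947 to 105896819, minus strand) was at 30.7 and 22.8 CPM in the controls and at 31.4 and 32.5 CPM in the mutants. The groups did not overlap, although control replicate 1 lay next to the mutants. Control replicate 2 was the low library, and the log2 fold change was 0.26 (95% interval -0.20 to 0.71, adjusted p = 0.596, edgeR). The intervals of Spry1 and Spry2 do not reach the increase estimated for Fgfr1. That of Spry2 overlaps the Fgfr1 interval (0.53 to 1.23), and differences between genes were not tested.

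Dusp6 (chromosome 10 from 99263231 to 99267489, plus strand), a much used readout of ERK activity, was at 28.8 and 25.4 CPM in control replicates 1 and 2. In I53A replicates 1 and 2 it was at 33.4 and 33.7 CPM. Both mutants were slightly above both controls. The log2 fold change of 0.31 had a 95% interval from -0.11 to 0.72 and did not pass the test (adjusted p = 0.442, edgeR).

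Spry4 (chromosome 18 from 38586247 to 38601347, minus strand) had 43 and 32 reads in control replicates 1 and 2, 46 in I53A replicate 1 and 230 in I53A replicate 2. In CPM these were 2.56, 2.12, 2.93 and 10.1. A single library was high: I53A replicate 1 lay next to the controls. The log2 fold change, 1.55 ± 0.59 (SE, 95% interval 0.24 to 2.86), missed the threshold (adjusted p = 0.178, edgeR). It was 0.31 without I53A replicate 2 (adjusted p = 0.801, edgeR) and 2.11 without I53A replicate 1 (adjusted p = 0.00287, edgeR), so that its size rested on I53A replicate 2. Spry1, Spry2 and Dusp6 were not high in that library beside the other mutant, and they read 32.8, 32.5 and 33.7 CPM there.

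Ordered by CPM per kilobase of exon, the controls ran from Fgfr2 (156 ± 9.06, SD, n = 2) to Fgfr3 (15.8 ± 1.75), Spry1 (13.1 ± 0.440), Spry2 (12.8 ± 2.66), Dusp6 (8.65 ± 0.746), Fgfr1 (5.48 ± 0.609), Fgfr4 (0.553 ± 0.117), Spry4 (0.492 ± 0.0653), Fgf1 (0.249 ± 0.214) and Fgf2 (0.0420 ± 0.00972). Neighbours whose control libraries overlapped were Spry1 with Spry2 and Fgfr4 with Spry4. In the mutants Fgfr2 (135 ± 19.3) was followed by Spry2 (15.3 ± 0.371), Spry1 (12.6 ± 1.78), Fgfr3 (11.1 ± 2.60), Dusp6 (10.7 ± 0.0607) and Fgfr1 (10.1 ± 0.443). There Spry1 overlapped Fgfr3, and Fgfr3 overlapped Dusp6. By the means Fgfr1 thus kept the sixth place in both groups, while its level came near those of Fgfr3 and Dusp6. In I53A replicate 2 Fgfr1 stood above Fgfr3 (10.4 against 9.30), so that these genes overlapped too.

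The rest of the pathway was read from a list of 75 other genes, of which 58 were tested. Of these 3 rose and none fell, 5.17% against the 6.71% called over all genes. Their median log2 fold change was 0.07. The 3 genes were Sdc3, a syndecan with heparan sulfate chains, Dusp9, a phosphatase of ERK, and Spred3, a Sprouty-related inhibitor of RAS signalling. The list was compiled with earlier results of these data known, and genes nearly silent in controls enter the test only through the mutant libraries. With the GC content and length offsets 2 of the 58 were higher and 4 lower, in a setting where 54.3% of all calls were increases, against 84.5% without the offsets.

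Sdc3 (chromosome 4 from 130792537 to 130826318, plus strand) was at 10.4 and 9.87 CPM in control replicates 1 and 2 and at 50.3 and 58.2 CPM in I53A replicates 1 and 2. The replicates lay close together and the groups far apart. Its log2 fold change was 2.42 ± 0.20 (SE) at an adjusted p of 0.00012 (edgeR), a 5.36-fold rise that passed without each library in turn (adjusted p at most 0.00721). Syndecans present FGFs to their receptors. The other syndecan genes Sdc1, Sdc2 and Sdc4 did not pass the test. Sdc2 stood at 32.0 and 30.5 CPM in the controls and at 45.9 and 48.1 CPM in the mutants (adjusted p = 0.0748, edgeR).

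Dusp9 (chromosome X from 73639389 to 73643514, plus strand) was at 11.1 and 8.68 CPM in control replicates 1 and 2 and at 33.8 and 34.6 CPM in I53A replicates 1 and 2. It rose 3.44-fold, or 1.78 ± 0.22 (SE) as log2 fold change (adjusted p = 0.00116, edgeR). The mutant library with Y-linked reads and the one without had like levels of this X-linked gene. The call passed without each library in turn, with an adjusted p of at most 0.0240 (edgeR).

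Spred3 (chromosome 7 from 29157783 to 29170070, minus strand) was at 6.67 and 9.28 CPM in control replicates 1 and 2 and at 20.9 and 16.4 CPM in I53A replicates 1 and 2. It rose 2.33-fold (log2 fold change 1.22 ± 0.28, SE, adjusted p = 0.0276, edgeR), but not without control replicate 1 (adjusted p = 0.334, edgeR) nor with the GC content and length offsets (adjusted p = 0.0653, edgeR). Ggn overlaps Spred3 exons on the opposite strand, with 64, 69, 37 and 30 reads. Its relatives Spred1 and Spred2 did not pass: Spred1 was at 91.1, 86.1, 104 and 101 CPM and Spred2 at 269, 285, 226 and 191 CPM in control replicates 1 and 2 and I53A replicates 1 and 2.

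**Figure D4:**
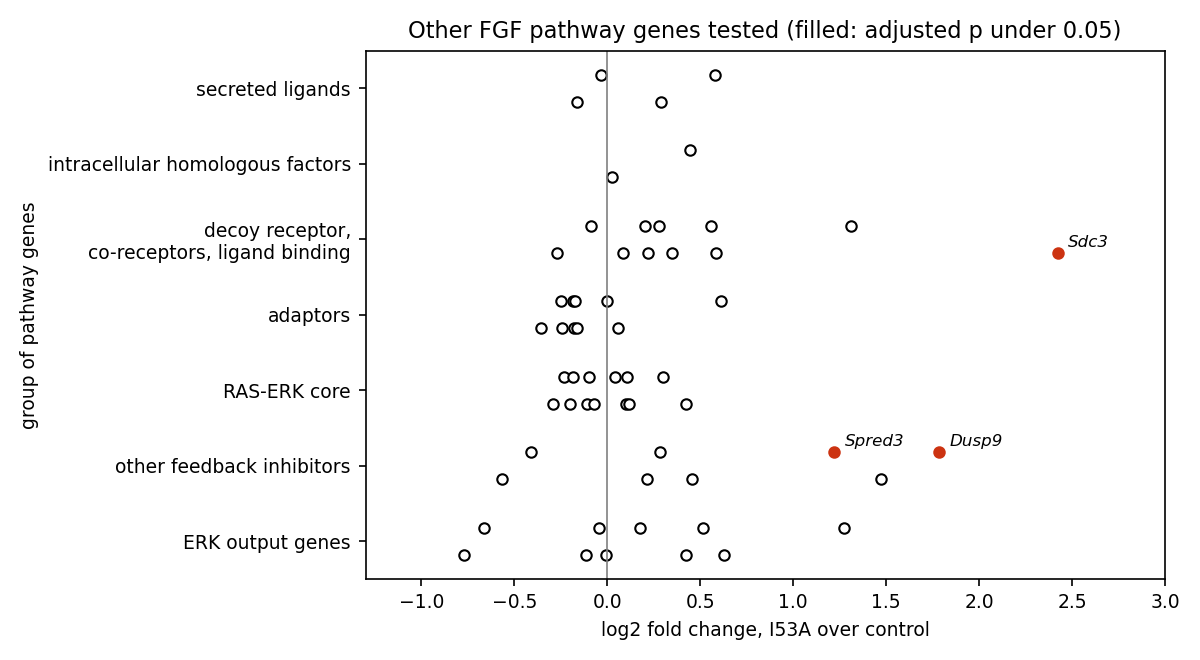
Log2 fold change of I53A over control for the 58 tested genes of the wider pathway list, 1 point a gene, by group. Sdc3 (2.42), Dusp9 (1.78) and Spred3 (1.22) are filled as past the adjusted threshold, and the RAS-ERK core spans -0.29 to 0.42.

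Polycomb complexes are known for binding unmethylated CpG-rich promoters, so the promoter letters of Sdc3 and Spred3, which rose, are shown beside those of the feedback genes Dusp6 and Spry2, which did not pass the test. No window is shown for Dusp9, the other pathway gene that rose. Each line gives the 250 bases upstream of a RefSeq start (GRCm38.p6), 5′ to 3′ on the gene's strand, with CG pairs in capitals. The windows are chr4:130792287-130792536 (plus) for Sdc3, chr7:29168648-29168897 (minus) for Spred3, chr10:99262981-99263230 (plus) for Dusp6 and chr14:105896820-105897069 (minus) for Spry2. The Spred3 window belongs to a start inside the gene span given above, while the other windows adjoin the 5′ end of their gene's span.
Sdc3: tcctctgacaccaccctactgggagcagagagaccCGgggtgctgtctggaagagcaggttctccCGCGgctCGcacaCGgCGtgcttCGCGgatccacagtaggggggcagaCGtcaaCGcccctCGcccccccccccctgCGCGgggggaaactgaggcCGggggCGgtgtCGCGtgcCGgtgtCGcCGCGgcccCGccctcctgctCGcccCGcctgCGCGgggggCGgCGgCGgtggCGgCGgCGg
Spred3: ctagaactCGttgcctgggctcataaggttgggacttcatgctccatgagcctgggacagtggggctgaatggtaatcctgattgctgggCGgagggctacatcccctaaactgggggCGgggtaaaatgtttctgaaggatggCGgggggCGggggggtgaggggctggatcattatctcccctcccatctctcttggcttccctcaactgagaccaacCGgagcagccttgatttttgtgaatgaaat
Dusp6: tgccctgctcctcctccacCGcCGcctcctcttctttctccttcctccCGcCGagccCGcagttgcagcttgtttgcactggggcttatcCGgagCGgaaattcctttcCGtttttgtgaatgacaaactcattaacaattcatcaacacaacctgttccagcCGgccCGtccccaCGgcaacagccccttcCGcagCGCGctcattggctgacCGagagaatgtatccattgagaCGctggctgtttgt
Spry2: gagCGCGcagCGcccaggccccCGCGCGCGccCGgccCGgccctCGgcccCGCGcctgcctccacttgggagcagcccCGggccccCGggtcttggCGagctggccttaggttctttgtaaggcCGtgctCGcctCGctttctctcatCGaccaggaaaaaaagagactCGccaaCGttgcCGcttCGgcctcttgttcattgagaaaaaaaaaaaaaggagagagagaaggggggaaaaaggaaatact
The Sdc3 window held 32 CG pairs, a number reached by 4.58% of the 32851 windows of that length in the RefSeq table, whose median was 6. Spry2 had 23 (reached by 13.3%), Dusp6 16 (25.4%) and Spred3 6 (50.4%). The Spred3 count is that of the internal start and not of the 5′ end of the gene, and 4 windows do not compare genes that rose with genes that did not. The motif CCGGAAG of ETS factors, the transcription factors downstream of ERK, was in none of these 4 windows on either strand and was in 6.91% of all windows. No match says only that these letters are not there. Of the 10 genes first listed, 7 had an entry in the table, without Fgfr1, Fgf1 and Spry4.

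Secreted ligands other than Fgf1 and Fgf2 were few. Of 16 listed genes 4 were tested and none was called by edgeR or DESeq2, with 0 at an unadjusted p under 0.05, and 4 had 0 reads in every library. As edgeR called 6.71% of all tested genes and 18.7% had such a p, 0 of 4 is not a result about the ligands. The highest was Fgf23, a hormone of phosphate balance, at 2.50 and 4.37 CPM in the controls and 2.93 and 3.13 CPM in the mutants. Fgf7 and Fgf10, chosen here for their known role as dermal ligands of Fgfr2 and after their values were seen, had 7 to 40 and 6 to 18 reads per library. Of the intracellular FGF homologues, which do not act through these receptors, Fgf11 was the highest, at 29.6 and 54.9 CPM in controls and 48.9 and 65.7 CPM in mutants (adjusted p = 0.437, edgeR).

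Downstream of the receptors, none of 10 adaptor genes and none of 13 RAS-ERK core genes passed the test by edgeR, with 1 gene in each group at an unadjusted p under 0.05. With 6.71% called and 18.7% at such a p over all tested genes, no call in lists this short is near the background. DESeq2 called none of either group. The adaptor gene of highest level was Gab1, which couples receptors to PI3 kinase and Shp2, at 301 and 282 CPM in controls and 246 CPM in both mutants (log2 fold change -0.24, adjusted p = 0.380, edgeR). Nras, the highest of the core, had a log2 fold change of 0.04 (95% interval -0.32 to 0.41).

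Genes that ERK signalling is known to induce held no call among 10 tested by edgeR, with 3 at an unadjusted p under 0.05. Over all tested genes 6.71% were called and 18.7% reached such a p. DESeq2, with 1204 calls in 15548 genes, called 1 of the 10, the cyclin gene Ccnd1 (log2 fold change 0.63, adjusted p = 0.0338). Egr1, the highest of them and an immediate early gene, was at 1613 and 1212 CPM in the controls and at 2501 and 1290 CPM in the mutants, where the groups overlapped (log2 fold change 0.42, adjusted p = 0.470, edgeR). It had a log2 fold change of 0.82 without I53A replicate 2 (adjusted p = 0.00121, edgeR) and of -0.13 without I53A replicate 1. The ETS factor genes Etv4 and Etv5, named for their use as FGF readouts and after their values were seen, differed in sign. Etv5 was at 20.9 and 25.8 CPM in controls and 12.6 and 14.6 CPM in mutants (log2 fold change -0.77, adjusted p = 0.0843, edgeR), and Etv4 at 6.25, 3.64, 4.20 and 9.56 CPM. Etv1, the other ETS factor gene of the list, had 22 to 82 reads per library and was higher in both mutants. It was at 1.90 and 1.46 CPM in controls and 4.71 and 3.61 CPM in mutants (log2 fold change 1.27, adjusted p = 0.167, edgeR).

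**Figure D5:**
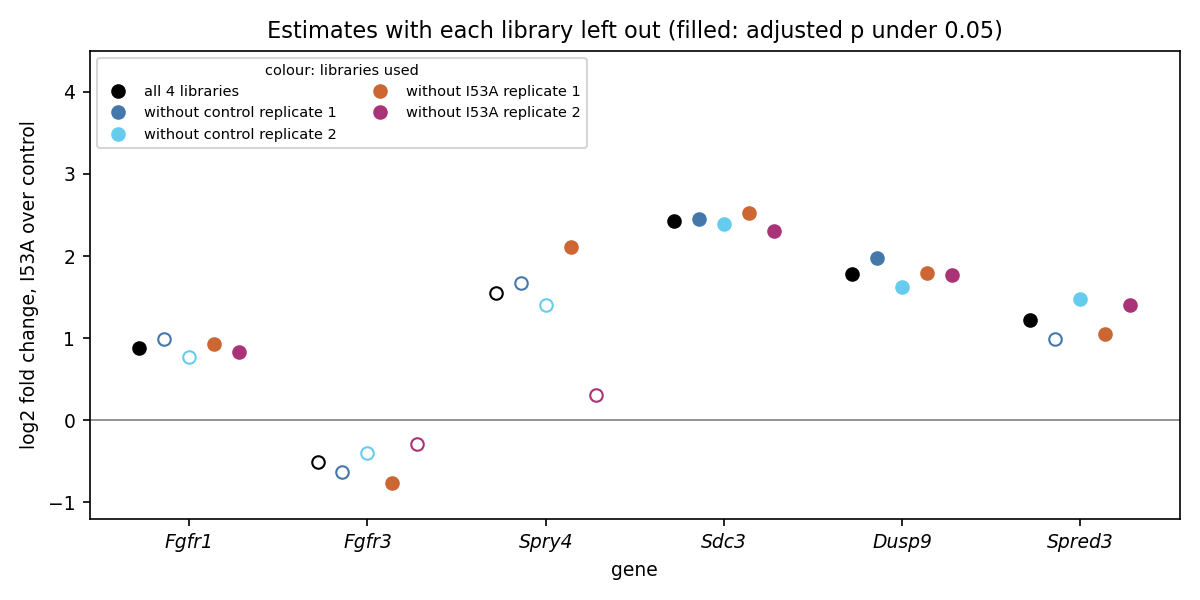
Log2 fold change of I53A over control for 6 genes, estimated with all 4 libraries (black) and with each library left out (colours), filled where the adjusted p was under 0.05. Sdc3 and Dusp9 stay filled at every setting shown, Fgfr1 is open without either control, and Spry4 ranges from 0.31 to 2.11.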

How the data were processed

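Per the labels' protocols, total RNA of sorted cells was reverse transcribed, amplified by an Ovation kit and sequenced as single reads. The authors deposited raw counts per gene symbol, not normalized. Named in the submitters' processing notes, with no role or order, are HTSeq 0.6.1, TopHat2 2.0.13, DESeq2 1.6.3, Cufflinks 2.2.1 and mm10. The annotation used and the strand setting were not given in the sources used here.

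Genes were filtered with filterByExpr (minimum count 10, minimum total 15), scaled with TMM and compared with edgeR 4.0.16 in R 4.3.3 (glmQLFit with legacy set to FALSE, glmQLFTest, no block), two-sided, with Benjamini-Hochberg adjustment over 14550 genes at 0.05. Depth was 15505018 to 21543385 counts, so that 1 read is 0.0441 to 0.0663 CPM. Replicates differed beyond sampling noise (chi-square per degree of freedom 11.2 and 35.2). The SE comes from the coefficient and its F statistic, and 95% intervals are per gene. Exon lengths, GC content and overlaps were taken from GENCODE M21 (GRCm38), where 98.0% of tested genes were found by symbol. Positions and promoters are RefSeq's. The fit was tested on simulated counts.

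The genes and lists were chosen with earlier results of these data known. Genes named are the 10 members, Ring1, Rnf2, pathway genes past the threshold, and in each pathway group without one the gene of highest mean CPM. Other names were chosen after values were seen. Marker lists of suprabasal keratinocytes, melanocytes, immune, endothelial, muscle and Merkel cells held no call by edgeR among 22 tested genes (8 at an unadjusted p under 0.05). Over all tested genes 6.71% were called and 18.7% reached such a p. Of 3 Schwann cell markers Mbp rose, and of 9 basal markers Krt15 fell. Alternatives tried were upper-quartile and RLE scaling, limma-voom (limma 3.58.1), DESeq2 1.42.0, other low-count filters, the earlier quasi-likelihood fit (added after seeing the data), loess offsets (span 0.5) for GC content and length, a replicate block, and each library left out in turn.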

Additional observations from a re-analysis of the deposited data

How the results depend on the processing

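Over 14 other settings, 221 of 238 values of single genes kept their direction and their side of the threshold. The exceptions with 4 libraries were Fgfr1, Spred3 and Fgfr3 with the GC content and length offsets, given beside their results, and with offsets and replicate block Fgfr3 (-0.86), Gab1 (-0.44) and Nras (turned to -0.00077). With the offsets and the block, calls were 2261 of 14260 tested genes, 2 of 9 tested members and 14 of 58 genes of the wider list. With the offsets alone 6 of 58 genes of the wider list were called, beside 1315 of 14260 over all genes. DESeq2 called 5 of 63, beside 1204 of 15548 over all genes. Leaving out each library in turn gave 289 to 1586 genes, 0 to 3 of the 10 and 2 to 11 of the wider list, with an arm of 1 library assumed to vary like the other. Without a control, 289 and 603 genes were called in all. Directions turned with a library left out for Spry1 (-0.21 to 0.072), Fgf23 (-0.53 to 0.28), Nras (-0.18 to 0.24) and Egr1 (-0.13 to 0.82), all on the log2 scale. The mutant share of Fgfr2 among receptor reads differed from the control share by -1.98 points with undivided reads, against -1.46 points per kb. The cause of these shifts was not tested.

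Whether the replicate numbers pair the samples cannot be told from the counts. Deviations of same-numbered libraries correlated at 0.04 over 14550 genes, and with 2 groups of 2 every pair gives the same size. A replicate block called 1274 of the 14550 genes, against 977 without it. It called 1 of 9 tested members (Fgfr1, adjusted p = 0.0025, edgeR) and 4 of 58 genes of the wider list. Depth limits Fgf1, Fgf2 and Fgfr4: in every library each had at most 65 reads, and 3 reads were 0.132 to 0.199 CPM.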
